A study of Drosophila melanogaster with 9 samples.

Results

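Embryos labelled Cbt>69B, in which the 69B-Gal4 driver directs a UAS-Cbt transgene, were compared with w1118 embryos. The comparison rests on 6 of the 9 arrays of the study, chosen by their titles, with 3 arrays labelled Cbt>69B and 3 labelled w1118. The labels call the Cbt>69B embryos homozygous and describe 69B-Gal4 as an epidermal driver. The w1118 embryos, the white-eyed control strain, were sorted at the same stages. The remaining 3 arrays came from embryos homozygous for the allele cbtEP(2)2237E1, and their levels are given beside a few genes. These arrays entered the shared estimate of the spread and the alternative scalings. The mean level over the 9 arrays, used below to select and centre probe sets, also includes them. Whole dechorionated embryos at stages 10 to 13, from the extended germ band through its retraction, gave the total RNA. About 1000 embryos went into each Cbt>69B and each mutant sample, and the labels give no such number for w1118. No embryos with the driver alone or the transgene alone were analysed here, so Cbt itself, the driver, the transgene insertion and the strain background cannot be told apart.

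Cabut (cbt, also called dTIEG) is a zinc finger transcription factor of the Krüppel-like family. It is needed in dorsal closure, in which both flanks of the epidermis advance over the amnioserosa and fuse, driven by an actin cable and new adhesions at their leading edge and controlled by JNK and Dpp signalling. In larvae, cbt also responds to dietary sugar and represses metabolic genes.

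Each biotin-labelled RNA was hybridised to 1 Affymetrix Drosophila Genome 2.0 array, and the values are log2 expression levels from RMA, 1 per probe set and array. After 183 Affymetrix controls were set aside, 18769 probe sets were tested with limma at a Benjamini-Hochberg adjusted p under 0.05. The background of an array was taken as its highest Tag control, a probe set without a target in the fly, and lay between 0.83 and 1.20 on the Cbt>69B arrays and between 0.58 and 0.95 on the w1118 arrays. With 3 arrays per group the precision is limited. The labels do not say whether samples of 1 group were collected separately, so the p-values cover the spread between samples only, and that spread may be technical. In whole embryos, fewer cells of a type and less RNA per cell cannot be told apart.

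Among the w1118 arrays, replicate 2 stood apart, at r = 0.89 to 0.894 with replicates 1 and 3. Replicates 1 and 3 correlated with each other at 0.987. Most results are therefore given on each w1118 array or against replicate 2 alone. The Cbt>69B arrays correlated with w1118 replicate 2 at r = 0.968 to 0.981 across probe sets, but with replicate 1 at 0.852 to 0.886 and with replicate 3 at 0.842 to 0.878. The Cbt>69B arrays correlated with each other at 0.982 to 0.992. The hybridisation control bioB, a bacterial transcript added to each sample, followed the same division, at 6.85, 6.37 and 6.45 in Cbt>69B replicates 1, 2 and 3, against 4.67, 6.26 and 3.85 in w1118 replicates 1, 2 and 3. Its part in the differences below was not tested.

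The cbt probe set itself went against the label. It stood at 3.17, 3.16 and 3.74 in the arrays labelled Cbt>69B, against 6.22, 6.05 and 7.90 in w1118 replicates 1, 2 and 3, so the groups did not overlap. The log2 difference was -3.37 (SE 0.48, limma adjusted p = 0.0436). Against w1118 replicate 2 alone it was -2.70 (adjusted p = 0.0716), and the call was also lost in a fit of only the 6 compared arrays (adjusted p = 0.165). The cbt mutant arrays held 4.25, 4.70 and 3.85. Whether the transgene carries the probed stretch of cbt was not analysed here. All directions below are therefore those of the arrays labelled Cbt>69B, whose measured cbt transcript was lower than that of w1118.

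With all w1118 arrays as controls, 45 probe sets rose in the arrays labelled Cbt>69B (0.24% of those tested) and 25 fell (0.133%), 70 in all (0.373%). Of these, 56 carried a single gene symbol, with 40 genes higher and 16 lower, 1 carried several symbols and 13 were unnamed. All 70 had no overlap between the groups, kept their direction against w1118 replicate 2 alone and were also called without it. Replicate 2 is itself among the controls behind these calls, so its agreement in direction was largely fixed by the selection. Scaling moved the split between directions, to 101 higher and 23 lower with quantile normalization and 51 higher and 16 lower with cyclic loess. The choice of control moved both the count and the split between directions. With w1118 replicate 2 as the only control, 38 probe sets passed (0.202%), 19 higher and 19 lower (0.101% each). That control is a single array, so the spread in this test comes from the Cbt>69B and mutant arrays and the array is assumed to vary like them. Without it, 7625 passed (40.6%), 3680 higher (19.6%) and 3945 lower (21.0%). Over all probe sets, the Cbt>69B arrays lay wholly above the w1118 arrays for 3194 (17.0%) and wholly below for 2254 (12.0%).

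**Figure D1:**
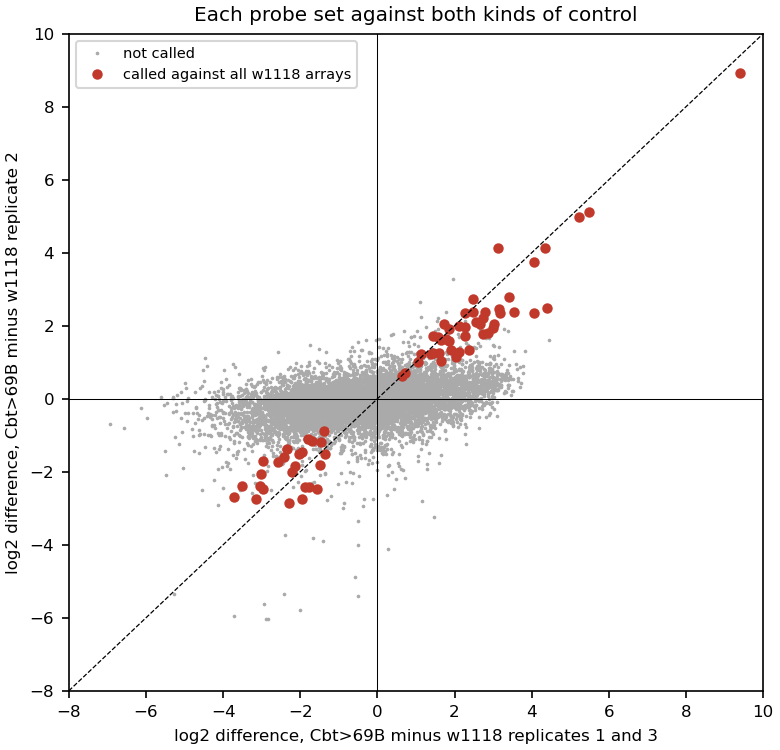
Log2 difference of every tested probe set between the mean of the Cbt>69B arrays and w1118 replicates 1 and 3 (horizontal axis) or w1118 replicate 2 (vertical axis); the dashed line marks equal differences. The 70 called probe sets (red), selected with all w1118 arrays, keep their sign on both axes. Most others (grey) spread widely along the horizontal axis and little along the vertical one.

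Against replicate 2 alone, 20 of the 70 probe sets were still called, 14 higher and 6 lower. The 16 named genes among them were Spn28Da, RFeSP, CG34188, eIF4E3, Cyp6a16, EndoU, Gbp1, Naxe, CG6028, twz, ninaD and CG9444, which were higher, and CG4849, CG32572, Ugt50B3 and CG7900, which were lower. Of the 55 called genes other than cbt, Spn28Da, RFeSP, eIF4E3 and Naxe, all higher, passed in each of the 20 other fits that were run. CG34188 and Gbp1, which were higher, and CG4849, which was lower, passed in the 18 fits that included them, since they were too dim for the other 2.

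The largest rise was that of Spn28Da, which encodes a secreted serine protease inhibitor of the serpin family. It stood at 10.19, 9.87 and 9.92 in the arrays labelled Cbt>69B, against 0.51, 1.07 and 0.64 in w1118 replicates 1, 2 and 3. It was thus among bright transcripts in the first group and near background in all of the second. The log2 difference was 9.25 (SE 0.39, adjusted p = 4.89e-05), and the mutant arrays held 1.85, 1.39 and 3.06. Of 29 serpins measured, Spn28Da was the single one called over all probe sets, and the median serpin differed by 0.05, against 0.04 over all 11982 genes. By the brightest probe set of each gene, 36 of those 11982 genes were called higher and 15 lower. The counts of single called members below stand beside these.

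RFeSP encodes the Rieske iron-sulphur subunit of respiratory complex III. Its called probe set stood at 5.61, 5.39 and 5.39 in Cbt>69B, against 0.25, 0.49 and 0.24 in w1118, where it was at background on every array. The Cbt>69B level was at least 27.1-fold higher (adjusted p = 1.77e-06). A second RFeSP probe set was bright in every array, at 9.10, 8.92 and 9.01 in Cbt>69B, against 6.82, 8.62 and 6.52 in w1118. Its difference of 1.69 did not pass (SE 0.51, adjusted p = 0.0986), and against replicate 2 alone it was 0.39. The 2 probe sets thus agreed in sign but not in size, and which transcripts each one covers was not analysed here.

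CG34188 had the same form, at 4.84, 4.77 and 4.72 in Cbt>69B, against 0.43, 0.66 and 0.43 in w1118, at least 16.9-fold higher (adjusted p = 1.77e-06). A second probe set of CG34188 was at background in both groups. The cap-binding translation initiation factor gene eIF4E3 stood at 5.46, 5.51 and 5.77 in Cbt>69B, against 1.30, 1.83 and 1.72 in w1118 (log2 difference 3.96, SE 0.17, adjusted p = 4.89e-05). The eIF4E3 level in the mutant arrays was 5.82, 5.87 and 5.62, so the w1118 arrays were the low ones among the 3 groups. Of 40 translation initiation genes measured, eIF4E3 was the one called over all probe sets.

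EndoU, an endoribonuclease gene, stood at 4.45, 4.54 and 4.83 in Cbt>69B, against 1.81, 0.49 and 1.15 in w1118 (3.46, SE 0.30, adjusted p = 0.0054). Here w1118 replicate 2 was the lowest control. Another EndoU probe set did not pass and had the opposite sign, at 1.72, 2.51 and 1.67 in Cbt>69B, against 4.15, 1.41 and 3.46 in w1118 (-1.04, SE 0.67, adjusted p = 0.299). The cytochrome P450 gene Cyp6a16 stood at 6.86, 6.30 and 6.49 in Cbt>69B, against 1.89, 4.06 and 2.42 in w1118. Its difference was 3.76 with all controls (SE 0.50, adjusted p = 0.0354) and 2.49 against the higher replicate 2 (adjusted p = 0.0493). It was the 1 called of 83 P450 genes measured, and the mutant arrays held 5.40, 4.78 and 5.13.

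Obp99b, an odorant-binding protein gene, stood at 4.95, 4.84 and 4.76 in Cbt>69B, against 1.32, 2.47 and 1.30 in w1118 (3.16, SE 0.37, adjusted p = 0.0191). The gene fit, known as a fat body transcript of adult females, stood at 4.40, 3.22 and 3.84 in Cbt>69B, against 0.37, 1.03 and 0.43 in w1118, at least 8.51-fold higher (adjusted p = 0.0072). Both lost their calls against replicate 2 alone, at adjusted p of 0.0994 for Obp99b and 0.0835 for fit. Gbp1, a growth-blocking peptide with cytokine activity, held 3.21, 3.58 and 3.52 in Cbt>69B, against 0.97, 1.32 and 0.79 in w1118 (2.41, SE 0.18, adjusted p = 0.0021). PH4alphaSG2, a prolyl 4-hydroxylase subunit of the salivary gland that modifies secreted collagen-like proteins, held 6.93, 6.51 and 6.66 in Cbt>69B, against 4.27, 4.66 and 3.05 in w1118 (2.71, SE 0.40, adjusted p = 0.0455).

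A pair of serine protease genes of the Toll pathway, which act in a cascade that cleaves the ligand Spätzle, was also among the rises. The upstream protease gene grass held 4.05, 4.15 and 4.11 in Cbt>69B, against 2.16, 2.37 and 1.53 in w1118 (2.08, SE 0.31, adjusted p = 0.0455). SPE, the Spätzle-processing enzyme, held 2.56, 2.73 and 2.67 in Cbt>69B, against 1.22, 1.05 and 0.78 in w1118 (1.64, SE 0.24, adjusted p = 0.0455). Neither passed against replicate 2 alone, at 0.266 for grass and 0.254 for SPE, and SPE averaged 3.30 in the mutant arrays. They were the 2 called of 33 Toll and immune genes measured, beside 36 higher and 15 lower of all 11982 genes. The median of the list was 0.05.

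Several single enzyme genes rose as well. Naxe, an epimerase that repairs hydrated nicotinamide cofactors, held 4.58, 4.41 and 4.68 in Cbt>69B, against 2.51, 2.21 and 2.07 in w1118 (2.30, SE 0.15, adjusted p = 0.000878). The gene gkt, a tyrosyl-DNA phosphodiesterase, held 3.52, 4.21 and 4.05 in Cbt>69B, against 0.87, 2.13 and 1.27 in w1118 (2.51, SE 0.32, adjusted p = 0.0285), and a brighter gkt probe set differed by 1.45 without passing (SE 0.38, adjusted p = 0.0963). The UMP synthase gene r-l rose by 1.17, the peptide N-glycanase gene Pngl by 1.04 and Alg10, a glucosyltransferase of N-glycan assembly, by 1.77. Against replicate 2 alone the differences were 1.23 for r-l and 1.58 for Alg10. Pngl had the narrowest controls of these, at 5.46, 5.56 and 5.66 in Cbt>69B, against 4.54, 4.54 and 4.49 in w1118.

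The genes sev, ninaD and Or71a also rose, to modest levels. The receptor tyrosine kinase gene sev, needed for photoreceptor fate in the eye, held 4.22, 3.36 and 3.58 in Cbt>69B, against 0.97, 1.67 and 1.12 in w1118 (2.46, SE 0.26, adjusted p = 0.0107). The carotenoid uptake receptor gene ninaD held 4.01, 4.15 and 4.12 in Cbt>69B, against 2.66, 2.04 and 2.05 in w1118 (1.84, SE 0.19, adjusted p = 0.0089). The odorant receptor gene Or71a rose by 1.61 to a mean of 2.60 ± 0.14 (SD, n = 3) in Cbt>69B, against 0.98 ± 0.24 (SD, n = 3) in w1118. The mutant arrays held 3.04, 3.14 and 2.53, so w1118 was the low group for Or71a too. Or71a was the 1 called member among 166 chemoreceptor genes, of which 1 had a mean level above 2.

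The rest of the 15 largest named rises were CG11170 (log2 difference 3.49), CG33093 (2.92), asRNA:Eig63F-2 (2.90), Smyd4-2 (2.65), a gene of the SET and MYND domain family, and CG13640 (2.65). The strand of the asRNA:Eig63F-2 probe set was not checked, so signal from an antisense partner cannot be told apart. The remaining named rises measured in both groups ranged from 1.04 for Pngl to 2.46 for sev. Among them was 18SrRNA-Psi:CR41602 (2.44), a ribosomal RNA pseudogene whose sequence is shared with other copies. CtsL3, a cathepsin L-like protease gene, rose by 2.07, or 1.99 against replicate 2 alone. The transmembrane ubiquitin ligase gene gol rose by 2.02, or 1.34 against replicate 2 alone. A second gol probe set did not pass and had the opposite sign, at 3.48, 3.02 and 3.64 in Cbt>69B, against 5.41, 3.06 and 4.31 in w1118 (-0.88, SE 0.53, adjusted p = 0.271). With w1118 at background, the G protein-coupled receptor gene mth was at least 2.51-fold higher and CG18258 at least 1.52-fold higher. Mutant means lay above w1118 for CG33093 (3.17 against 0.71), mth (2.00 against 0.29) and CG6028 (6.59 against 4.73). They did not for sev (1.16 against 1.26) or gol (1.60 against 1.83).

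**Figure D2:**
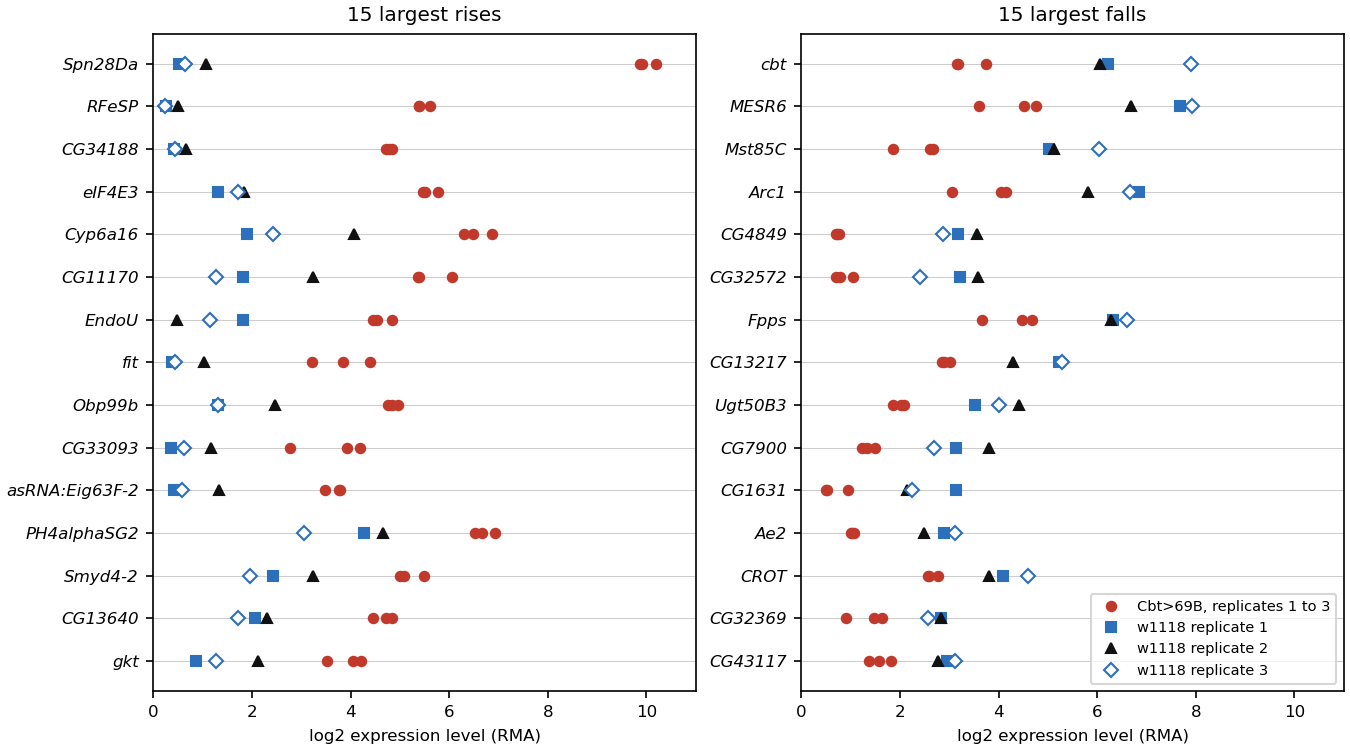
Log2 expression level on each array for the 15 named genes with the largest rises (left) and falls (right) in the arrays labelled Cbt>69B; red points are the Cbt>69B arrays, squares, triangles and diamonds w1118 replicates 1, 2 and 3. No Cbt>69B array overlaps a w1118 array in any row, and replicate 2 (triangle) is the control nearest to Cbt>69B for many genes but not for EndoU, CG4849 or Ugt50B3.

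Falls were fewer. After cbt, the largest named falls were those of MESR6, a gene found as a modifier of Ras signalling, and of Mst85C, a male-specific transcript. MESR6 stood at 3.59, 4.76 and 4.52 in Cbt>69B, against 7.68, 6.69 and 7.93 in w1118 (-3.14, SE 0.43, adjusted p = 0.0401), and its mean was 3.83 in the mutant arrays. Mst85C stood at 1.86, 2.60 and 2.67 in Cbt>69B, against 5.02, 5.12 and 6.04 in w1118 (-3.02, SE 0.36, adjusted p = 0.0217). Replicate 2 was the lowest control for MESR6 and lay between the others for Mst85C. The differences against it alone were -2.40 for MESR6 and -2.74 for Mst85C, neither of which passed.

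Arc1, which encodes a capsid-forming Gag-like protein of neurons and fat body, held 3.05, 4.15 and 4.04 in Cbt>69B, against 6.85, 5.81 and 6.67 in w1118 (-2.70, SE 0.35, adjusted p = 0.0299). A dimmer Arc1 probe set was at background in Cbt>69B, with the w1118 level at least 1.31-fold higher, and did not pass (adjusted p = 0.102). Fpps, the farnesyl pyrophosphate synthase of the isoprenoid pathway, held 3.66, 4.67 and 4.47 in Cbt>69B, against 6.33, 6.28 and 6.61 in w1118. The 3 controls lay close together here, and the difference was -2.14 (SE 0.25, adjusted p = 0.0217). Fpps was the only one of 20 lipid and isoprenoid synthesis genes called over all probe sets, beside 36 higher and 15 lower of all 11982 genes.

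Other falls reached background in Cbt>69B and have only a bound. CG4849 held 0.70, 0.72 and 0.76 in Cbt>69B, against 3.18, 3.57 and 2.86 in w1118, so that the w1118 level was at least 4.36-fold higher (adjusted p = 0.0016). A second CG4849 probe set was level across the groups, at 5.33, 5.54 and 5.48 in Cbt>69B, against 5.11, 5.21 and 5.53 in w1118 (0.17, SE 0.23, adjusted p = 0.617). The w1118 level was likewise at least 3.77-fold higher for CG32572, 3.22-fold for Ae2, an anion exchanger gene, and 2.63-fold for CG1631. Of the measurable falls, Ugt50B3, a UDP-glycosyltransferase gene, held 1.85, 2.08 and 2.02 in Cbt>69B, against 3.51, 4.40 and 4.01 in w1118 (-1.99, SE 0.21, adjusted p = 0.0126), with replicate 2 the highest control. CROT, a carnitine acyltransferase gene of peroxisomal fatty acid breakdown, fell by 1.52, CG13217 by 2.02 and CG7900 by 1.87. Against replicate 2 alone the differences were -1.16 for CROT, -1.38 for CG13217 and -2.47 for CG7900. The smallest named fall was 1.22, for CG12194.

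A fit restricted to the 6925 probe sets with a mean level above 2 gave 1100 calls (15.9%), 466 higher (6.73%) and 634 lower (9.16%). Of these, 1037 had an adjusted p between 0.04 and 0.05, so most calls lay close to the threshold. All 1100 kept their direction against replicate 2 alone, but that array is among the controls behind the calls, so this was largely fixed in advance. Counted by gene over the 5844 genes at that level, 407 were higher (6.96%) and 495 lower (8.47%), and their median difference was -0.32, or -0.08 against replicate 2. Of 59 gene lists drawn up, 16 are described below and a few others beside their called genes above. The 16 lists are read in this fit, by the brightest probe set of each gene, since limma called 0 of these with all 18769 probe sets tested. Reading them in this fit was thus a choice that followed the results. RFeSP, of the respiratory chain list, was called on its dimmer probe set. Their counts at an unadjusted p under 0.05 over all probe sets are given with the main lists, beside 2045 higher and 2280 lower of all 11982 genes. That base includes the genes below level 2.

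Mitochondrial ribosomal protein genes, which serve translation inside the organelle, were on balance higher in the arrays labelled Cbt>69B. Of 69 mitochondrial ribosomal protein genes, all with a mean level above 2, 24 rose and 0 fell in this fit, against 6.96% and 8.47% of genes at that level. The median difference was 1.28, and 43 were higher and 2 lower at an unadjusted p under 0.05 over all probe sets. Counted over arrays, 38 of the 69 lay wholly above the controls and 0 wholly below, against 17.0% and 12.0% of all probe sets. Those shares include probe sets below level 2, and the brighter ones were not counted apart. Against replicate 2 alone the median was 0.26, with 52 of 69 members above 0 and 0 called (6 higher and 0 lower at an unadjusted p under 0.05), and against replicates 1 and 3 it was 1.78. The median member, with each gene centred on its mean over the 9 arrays, lay at 0.53, 0.63 and 0.70 on the Cbt>69B arrays, against -0.91, 0.36 and -1.30 on w1118 replicates 1, 2 and 3.

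The large-subunit genes mRpL54, mRpL52 and mRpL9 had the smallest p of the list. The highest difference of the 3 was in mRpL54, which held 7.58, 7.14 and 7.23 in Cbt>69B, against 4.79, 6.15 and 4.02 in w1118 (2.33, SE 0.46, adjusted p = 0.0478 in the fit above level 2 and 0.0858 over all probe sets). The gene mRpL52 held 7.72, 7.45 and 7.41 in Cbt>69B, against 5.66, 6.90 and 5.23 in w1118, and mRpL9 held 6.43, 6.43 and 6.60 in Cbt>69B, against 5.13, 5.97 and 4.63 in w1118. In each of them replicate 2 was the highest control and still lay below every Cbt>69B array. Their small p was reached with replicate 2 among the controls, which favours such a gap.

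Respiratory chain and ATP synthase genes, which encode the electron transport complexes of the inner mitochondrial membrane, showed a smaller difference. Of the 57 with a mean level above 2, 17 rose and 0 fell in the fit above that level, against 6.96% and 8.47% of all genes there. For the members at that level with an annotated length the median difference was 0.81, against 1.28 for the mitochondrial ribosomal proteins. Over all 76 measured, dimmer members included, the median was 0.41, with 58 above 0. Against replicate 2 alone it was 0.22, again with 58 above 0. Under cyclic loess the median over all 76 was 0.17. At an unadjusted p under 0.05 over all probe sets, 35 were higher and 9 lower. The complex I gene ND-13B was higher than every control, at 6.19, 6.13 and 6.24 in Cbt>69B, against 5.52, 4.50 and 5.11 in w1118 (1.14, SE 0.23, adjusted p = 0.0481 above level 2 and 0.0861 over all probe sets). It passed against replicate 2 alone (1.69, adjusted p = 0.0149). Another complex I gene, ND-75, held 7.92, 7.47 and 7.41 in Cbt>69B, against 5.25, 6.59 and 4.71 in w1118, and the ATP synthase gene ATPsynO held 9.73, 9.40 and 9.53 in Cbt>69B, against 8.22, 8.96 and 8.14 in w1118. The complex II gene SdhC, which also serves the tricarboxylic acid cycle, held 9.38, 9.03 and 9.25 in Cbt>69B, against 6.54, 8.49 and 5.98 in w1118. Cytosolic ribosomal proteins did not share this direction, with 1 of 34 higher and 4 lower above level 2 and a median of -0.06, which was -1.05 under cyclic loess. Over all probe sets, 11 of them were higher and 9 lower at an unadjusted p under 0.05.

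**Figure D3:**
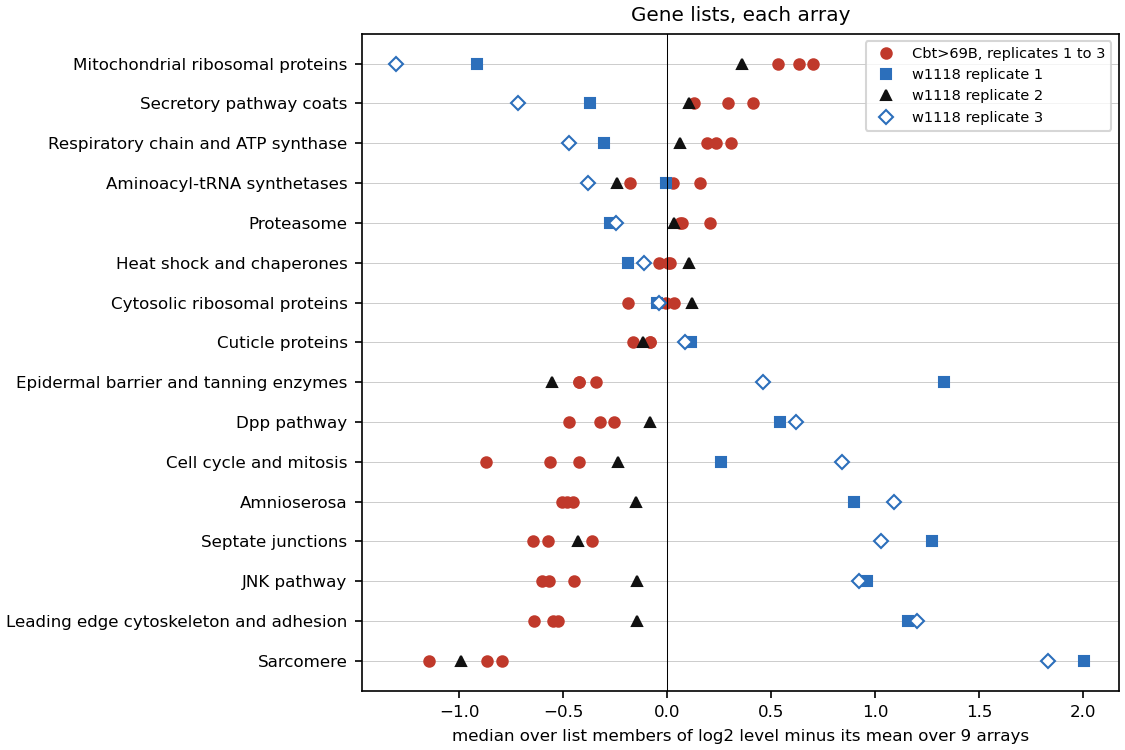
Median over the members of 16 gene lists of the log2 level minus its mean over the 9 arrays, for each Cbt>69B array (red) and for w1118 replicates 1, 2 and 3 (square, triangle, diamond). In the mitochondrial ribosomal protein list the Cbt>69B arrays lie at 0.53 to 0.70 with replicate 2 at 0.36 and replicates 1 and 3 at -0.91 and -1.30, and in the sarcomere list replicate 2, at -0.99, lies among the Cbt>69B arrays.

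Genes of the leading edge lay on the other side. Of 25 leading edge cytoskeleton and adhesion genes measured, 24 had a mean level above 2. In that fit 0 rose and 7 fell, against 6.96% and 8.47% of all genes at that level, with a median over the list of -1.41. No member lay above 0 with all controls, and 5 did against replicate 2 alone, where the median was -0.36 and 0 were called (0 higher and 3 lower at an unadjusted p under 0.05). With all controls, 0 were higher and 19 lower at that unadjusted p. The polarity kinase gene aPKC held 4.06, 3.65 and 3.73 in Cbt>69B, against 5.27, 4.79 and 5.61 in w1118 (-1.41, SE 0.23, adjusted p = 0.0481 above level 2 and 0.0553 over all probe sets). Its partner par-6 held 2.90, 3.80 and 3.55 in Cbt>69B, against 6.21, 4.49 and 6.31 in w1118 (-2.25), and the junctional actin linker gene cno held 0.72, 1.25 and 0.79 in Cbt>69B, against 3.58, 2.14 and 4.52 in w1118, where the level was at least 4.97-fold higher. In each of these replicate 2 was the lowest control and lay above every Cbt>69B array. They had the smallest p of the list with replicate 2 among the controls, which favours such a gap. Of the 25 genes, 12 lay wholly below the controls and 0 wholly above, against 12.0% and 17.0% of all probe sets, dim ones included.

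The JNK pathway, which directs leading edge cells, had 0 genes higher and 7 lower of 17 above level 2. Of all genes at that level, 6.96% were higher and 8.47% lower. The JNK median was -1.37, and -0.41 against replicate 2. At an unadjusted p under 0.05 over all probe sets, 0 JNK genes were higher and 13 lower. The kinase gene msn, upstream in the pathway, held 3.82, 3.59 and 3.80 in Cbt>69B, against 5.37, 4.63 and 5.83 in w1118 (-1.54, SE 0.29, adjusted p = 0.0481 above level 2). In the Dpp pathway, which JNK activates in the leading edge, 0 genes rose and 3 fell of 17 above level 2, and the median over the 22 measured was -0.75, or -0.24 against replicate 2. At an unadjusted p under 0.05 over all probe sets, 2 of these were higher and 11 lower. The extracellular protease gene tld, which frees Dpp from its inhibitor, held 2.12, 2.32 and 2.22 in Cbt>69B, against 3.48, 4.48 and 4.25 in w1118 (-1.85, SE 0.29, adjusted p = 0.0411 above level 2). For tld the difference was larger against replicate 2, at -2.27.

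**Figure D4:**
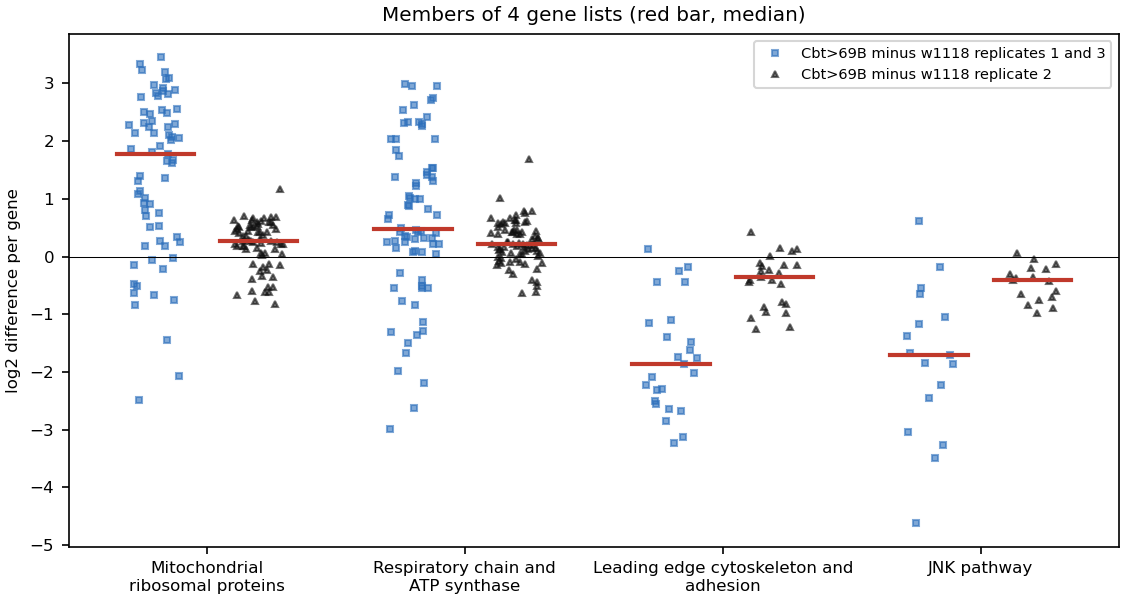
Log2 difference of each member gene of 4 lists between the mean of the Cbt>69B arrays and w1118 replicates 1 and 3 (blue squares) or w1118 replicate 2 (black triangles); red bars are medians. The mitochondrial ribosomal protein median is 1.78 against replicates 1 and 3 and 0.26 against replicate 2, and the JNK pathway median is -1.71 and -0.41.

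Gene length moved with these differences. In the 6075 brighter probe sets with a length in the annotation, the median difference from the Cbt>69B mean was 0.99, -0.07 and 1.08 against w1118 replicates 1, 2 and 3 for genes of at most 1 kb, and -1.57, -0.14 and -1.52 for genes over 16 kb. Against replicate 2 the trend was thus nearly flat. Mitochondrial ribosomal protein genes are short, with a median length of 0.909 kb, and leading edge genes are long, at 25.3 kb, against 2.67 kb over genes above level 2. With a smooth length trend removed from each array, the mitochondrial ribosomal protein median was 0.95, the leading edge median -0.44 and the JNK median -0.50, against 0.00 over all genes so treated. For the same genes without that step the medians were 1.28, -1.36 and -1.37.

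**Figure D5:**
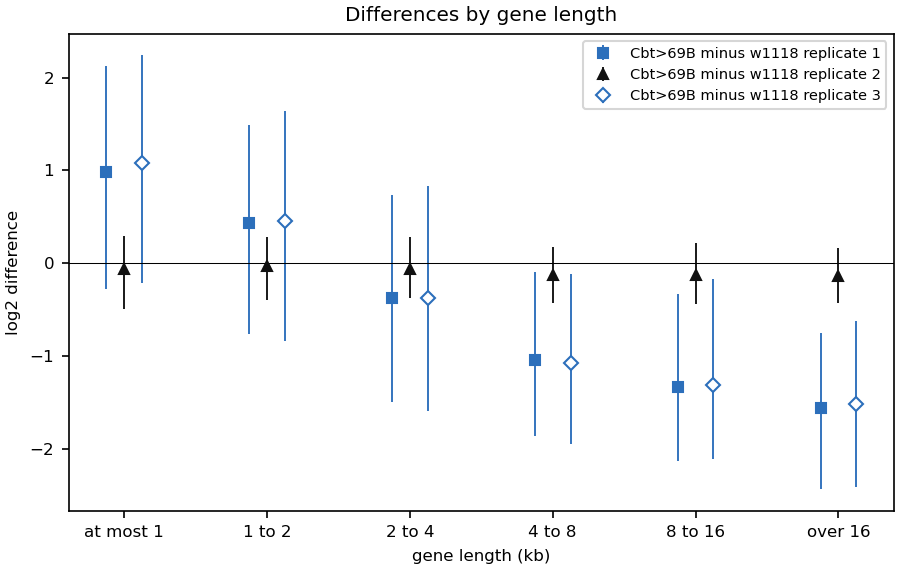
Median log2 difference between the mean of the Cbt>69B arrays and w1118 replicate 1, 2 or 3, by gene length in kb; bars run from the lower to the upper quartile of probe sets. Against replicates 1 and 3 the medians run from 0.99 and 1.08 in the shortest genes to -1.57 and -1.52 in the longest, and against replicate 2 they stay between -0.14 and -0.03.

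Markers of the epidermis, where the driver is described as active, were read in the RNA of whole embryos. Of these, 5 of 6 were above background on at least 1 of the 6 arrays, with ple below. Grainy head, grh, the epidermal barrier regulator, held 5.48, 6.05 and 6.19 in Cbt>69B, against 7.84, 6.20 and 7.78 in w1118 (-1.36, SE 0.43, adjusted p = 0.103). The median over the 6 epidermal markers was 2.25, 2.98 and 2.96 in Cbt>69B, against 5.38, 3.77 and 5.33 in w1118. Against replicate 2 alone grh differed by -0.29, shg by -0.82 and crb by -1.25. Against that array Nrx-IV differed by 0.02, Ddc by 0.36 and ple by 0.16. All 6 amnioserosa markers were above background on at least 1 array, and zen on 3 of the 6. With all controls, peb differed by -1.42, Doc1 by -1.37 and Doc3 by -0.73. Doc2 differed by 0.68, zen by 0.33 and Ance by 1.38, and none of these markers was called over all probe sets. The median over the 18 amnioserosa genes was -1.15, or -0.31 against replicate 2. Of the 17 above level 2, 1 rose and 3 fell, where 6.96% of all genes rose and 8.47% fell. The gene that rose was Ance, a peptidase of the angiotensin-converting enzyme family, at 9.46, 9.38 and 9.33 in Cbt>69B, against 7.93, 8.50 and 7.59 in w1118 (1.38, SE 0.22, adjusted p = 0.0481 above level 2). Among the falls, the receptor gene Tl held 6.22, 6.03 and 6.29 in Cbt>69B, against 8.11, 7.09 and 8.51 in w1118 (-1.72), and Egfr held 1.31, 2.69 and 1.74 in Cbt>69B, against 4.32, 3.47 and 4.77 in w1118 (-2.27).

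Sarcomere genes separated the controls from each other. The median of that list was -2.19 with all controls and 0.09 against replicate 2, with 0 genes called by limma in either direction (0 higher and 12 lower at an unadjusted p under 0.05). The troponin T gene up was near background in Cbt>69B and in replicate 2, at 0.75, 0.69 and 0.88 in Cbt>69B, against 4.84, 1.02 and 4.28 in w1118. Septate junction genes had 0 higher and 3 lower of 20 above level 2, with medians of -1.28 and, against replicate 2, -0.13. Of all genes at that level, 6.96% were higher and 8.47% lower. Cuticle protein genes had 1 higher and 7 lower of 31 above level 2. TwdlL, a cuticle protein gene, fell by 3.58 on the log2 scale, at 2.26, 2.76 and 2.05 in Cbt>69B, against 7.19, 3.85 and 6.77 in w1118 (adjusted p = 0.0481 above level 2). Cpr78E, another cuticle protein gene, went the other way, at 2.39, 2.78 and 2.96 in Cbt>69B, against 1.71, 1.69 and 1.45 in w1118 (1.09, SE 0.17, adjusted p = 0.0481 above level 2). Of the other markers, vas and Fbp1 were below background on all 6 arrays. The germ plasm gene nanos held 3.45, 2.59 and 2.90 in Cbt>69B, against 2.21, 7.10 and 3.18 in w1118, with replicate 2 far above the rest. The 5 adult female markers had medians of 1.15, 1.35 and 1.25 in Cbt>69B, against 0.82, 0.69 and 0.70 in w1118. These lay near the array backgrounds, which were 0.83 to 1.20 in Cbt>69B and 0.58 to 0.95 in w1118, and no such marker was called. A link of these markers with the rise of fit was not tested.

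Growth and protein-handling genes were mixed, and their counts stand beside 6.96% higher and 8.47% lower of all genes above level 2. Cell cycle genes had 1 higher and 6 lower of 26 above level 2, with medians of -0.94 and, against replicate 2, -0.52. The mitotic cyclin gene CycB3 held 4.31, 4.02 and 3.59 in Cbt>69B, against 6.42, 5.10 and 7.60 in w1118 (-2.40, SE 0.60, adjusted p = 0.0481 above level 2). Aminoacyl-tRNA synthetase genes had 5 higher and 1 lower of 23 above level 2, with medians of 0.27 and, against replicate 2, 0.27. With all controls that median was 0.57 under cyclic loess and 0.70 with quantile normalization. The mitochondrial enzyme gene PheRS-m held 6.05, 6.42 and 6.03 in Cbt>69B, against 5.39, 5.22 and 4.46 in w1118 (1.14, SE 0.24, adjusted p = 0.0481 above level 2). Secretory pathway coat genes had 3 higher and 1 lower of 20, with medians of 0.62 and, against replicate 2, 0.20, and of 0.29 under cyclic loess. Proteasome genes had 1 higher and 0 lower of 26.

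Among 21 heat shock and chaperone genes above level 2, 6 rose and 2 fell, where 6.96% of all genes rose and 8.47% fell. The median over the list was 0.09, or 0.00 to 0.04 under the other scalings. Those that fell were heat-inducible. The co-chaperone gene DnaJ-1 held 3.07, 3.98 and 3.82 in Cbt>69B, against 6.25, 6.54 and 9.24 in w1118 (-3.72, SE 0.76, adjusted p = 0.0411 above level 2 and 0.0861 over all probe sets). The small heat shock protein gene Hsp27 held 4.27, 4.58 and 4.48 in Cbt>69B, against 6.11, 7.02 and 9.27 in w1118 (-3.02, SE 0.70, adjusted p = 0.0481 above level 2). In both genes w1118 replicate 3 was the highest control, so the division between replicate 2 and the other controls did not hold here.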

How the data were processed

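RNA of 9 embryo samples was measured on 1 array each. The deposited values are log2 expression levels, made by the authors with RMA per the submitters' processing notes, which also list affy and limma and give no versions. The sources used here name neither a filter nor a chip definition, and no probe intensities were used. Groups were taken from the sample titles. The platform annotation gave 1 symbol for 13647 of the 18769 fly probe sets, several for 402 and none for 4720, and symbols were updated for 13544 with the RefSeq table of assembly Release 6, which also gave gene lengths. The sources name no build, so no coordinates are given.

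The 9 arrays entered a single linear model of the 3 groups in limma 3.58.1 in R 4.3.3, after it was tested on simulated data, and p-values were adjusted over all 18769 probe sets. A gene list uses the brightest probe set of each gene, with the median difference beside that of all genes. The genes named are cbt, all called probe sets with 1 symbol (up to 15 a direction in full) and, per list, up to 4 called members or the 3 with the smallest p. The members and lists were chosen with earlier results of these data known. A group at or below background has only a bound, computed against each array's background level. Replicate numbers were not used to pair the samples in the main fit. The correlations of deviations from the group means between the groups were -0.167, -0.24 and 0.028 for numbers 1, 2 and 3. With 3 arrays per group and w1118 replicate 2 apart, these cannot tell whether the numbers pair the samples. Alternatives covered scaling, filters, weights, the variance prior, gene length, the block and left-out arrays. Promoter words were not searched, since no promoter sequences were used here.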

Additional observations from a re-analysis of the deposited data

Results flagged for a closer look

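Among probe sets that no comparison used, the bacterial hybridisation controls separated the groups. The bioB controls averaged 6.56 over the Cbt>69B arrays, against 4.92 over the w1118 arrays, and every Cbt>69B array lay above every w1118 array. The bioC controls averaged 7.79 over the Cbt>69B arrays, against 6.43 over the w1118 arrays, also without overlap. In both, w1118 replicate 2 was the nearest control, with bioB at 6.26 and bioC at 7.52. What these controls share with the fly transcripts was not tested.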

How the results depend on the processing

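The count of 70 called probe sets (45 higher, 25 lower) depended on the fit. It was 124 (101 higher, 23 lower) with quantile normalization, 1100 (466 and 634) for probe sets with a mean level above 2, 8846 (4633 and 4213) with array weights, which gave w1118 replicate 2 a weight of 0.119, and 38 (19 and 19) with that replicate as the only control. It was 18 (13 and 5) with only the 6 compared arrays and 17 (14 and 3) with the replicate block. Whether its numbers pair the samples could not be told. With a gene length trend removed it was 1020 (636 and 384) of 6075 probe sets, against 947 (414 and 533) of the same probe sets with no trend removed, a setting added after seeing the data. Leaving out 1 array gave 11 to 7625 calls: for replicates 1, 2 and 3 of Cbt>69B these were 22, 23 and 11, for those of w1118 they were 45, 7625 and 27, and for those of the mutant 47, 47 and 30. With medians set equal, cyclic loess, a background filter or a trended robust prior it stayed at 64 to 100, and cyclic loess gave 51 higher and 16 lower.

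For cbt the difference was -3.37 with adjusted p of 0.165 for only the 6 arrays and 0.122 with the replicate block, and -2.70 (0.0716) with w1118 replicate 2 as the only control. Without 1 array it ran from -3.71 to -2.78. The call was lost without Cbt>69B replicate 1, 2 or 3 (0.179, 0.154 and 0.157), w1118 replicate 1 (0.0781) or mutant replicate 1, 2 or 3 (0.074, 0.0766 and 0.1). Of the 55 other called genes, 12 remained called with only the 6 arrays, 11 with the replicate block and 16 with w1118 replicate 2 as the only control, and 0 changed sign under the alternatives that included them, 20 for 44 genes and 18 for the 11 too dim for the level filter and the length trend. Of 288 list medians under alternatives, 20 moved beyond the spread between arrays, 8 of them with w1118 replicate 2 as the only control and 5 with the length trend removed. The cytosolic ribosomal protein median went to -1.05 under cyclic loess. The 5 that changed sign were those of the sarcomere, epidermal barrier and cuticle lists against w1118 replicate 2 (0.09, 0.19 and 0.05) and of the heat shock list under both filters (-0.04 and -0.12). The causes were not tested. Signal near background limits the falls to bounds for 5 called probe sets and the rises for 6.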

Other observations

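Some genes, chosen here after their values were seen, divided the control arrays in other ways. A probe set shared by Hsp70Aa and Hsp70Ab, the main heat-inducible chaperone genes, held 2.03, 2.07 and 2.51 in Cbt>69B, against 2.76, 8.16 and 9.10 in w1118 replicates 1, 2 and 3. Hsp68 held 1.83, 2.53 and 2.21 in Cbt>69B, against 1.97, 7.53 and 7.27 in w1118, and Hsp26 held 4.28, 3.45 and 3.82 in Cbt>69B, against 3.20, 9.63 and 8.53 in w1118. Here w1118 replicate 1 lay with the Cbt>69B arrays and replicates 2 and 3 were high. Of 11 heat shock probe sets examined, w1118 replicate 1 was the lowest control in 10, and the Cbt>69B mean lay below both replicates 2 and 3 in 9. None of the 11 was called by limma with all controls (7 were lower at an unadjusted p under 0.05, and the lowest adjusted p was 0.0861, for DnaJ-1), and 4 were called with replicate 2 as the only control. For Hsp68 the mutant arrays lay between these levels, at 4.18, 3.89 and 3.88.

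A few maternally supplied transcripts were high in w1118 replicate 2 alone among the controls. The germ plasm gene nanos was one of them. The maternal thioredoxin gene dhd held 4.75, 3.82 and 3.97 in Cbt>69B, against 4.54, 9.58 and 4.84 in w1118, and fs(1)Ya, needed for the first embryonic divisions, held 1.77, 2.12 and 1.66 in Cbt>69B, against 1.18, 4.01 and 1.07 in w1118. None of these passed with all controls, at adjusted p of 0.491 for nanos, 0.415 for dhd and 0.843 for fs(1)Ya. Mutant replicate 1 also held dhd high, at 8.59, against 2.82 and 3.10 in mutant replicates 2 and 3.

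Of the 38 probe sets called with w1118 replicate 2 as the only control, 18 were not called with all controls, 13 lower and 5 higher in the arrays labelled Cbt>69B. The array's own fly GAPDH control probe set at the 3' end held 3.35, 3.47 and 3.37 in Cbt>69B, against 5.56, 5.66 and 5.47 in w1118, with all 3 controls alike.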
